A study of Sus scrofa with 36 samples.

Results

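Sterol regulatory element-binding proteins (SREBPs) are membrane-bound transcription factors that switch on the genes of cholesterol and fatty acid synthesis. The group described here holds 8 genes of that pathway, the factor genes SREBF1 and SREBF2, the retention gene INSIG1, the sterol synthesis genes HMGCS1 and SQLE, and the fatty acid genes FASN, SCD and ACACA. They are 8 of the 11089 named genes of the array and have 33 of its 60305 probes, found by the gene name or by the gene symbol in the description of each probe. The genes were selected on the measured change between the temperatures, above all the rise of SREBF1 probe O13456 and the fall of SCD, so the changes of these genes with temperature are given below as a description, with no p. Genes outside the group were tested for temperature as for breed. Differences between breeds and between breeds in their response were not used in the choice and were tested.

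RNA came from whole thyroid glands of 36 castrated male pigs, 1 pig per array, 6 pigs in each of 6 groups. The labels give the breeds Creole (CR), Large White (LW) and F1, which the study's methods describe as a Large White by Creole cross, each at 24 °C and at 30 °C. The methods place the pigs in a climatic room at 11 weeks of age, with 10 days of adaptation and 9 days at 24 °C, and the protocol text gives the hot room as 32 °C for 5 days. The 24 °C pigs were slaughtered before the hot days and the 30 °C pigs after them, so temperature cannot be told apart from age and time of slaughter. The methods describe sets of littermates within each breed, but pen, litter, sire, dam and slaughter day are not in the labels, so all pigs were treated as independent. Breed and family cannot be told apart either, since each breed held few families. The p-values measure the spread between these pigs.

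In cells rich in sterol, INSIG proteins hold the SREBP precursors in the endoplasmic reticulum through the escort protein SCAP. When sterol falls, the precursors move to the Golgi, are cut by proteases, and their released part enters the nucleus. The SREBF2 product acts mostly on cholesterol genes and the SREBF1 products mostly on fatty acid genes, and fatty acid genes are also high in fat cells. Because cleavage controls the factors, mRNA levels on an array do not measure their activity.

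The probes that the results turn on are printed 5′ to 3′ as the files give them. The 3 SREBF1 probes are shown because they differed in what they measured. The capitals in O13456 mark bases 7 to 23, which equal 17 bases on the opposite strand of a probe to which the files give no gene name.
SREBF1 O13456: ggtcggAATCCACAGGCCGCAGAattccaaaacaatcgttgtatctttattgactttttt
SREBF1 A_72_P326973: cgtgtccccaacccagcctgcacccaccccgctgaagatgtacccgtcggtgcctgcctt
SREBF1 A_72_P223967: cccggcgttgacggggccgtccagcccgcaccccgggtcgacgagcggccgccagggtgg
The share of G and C was 40% in O13456, 66.7% in A_72_P326973 and 81.7% in A_72_P223967. The letters AATAAA, the usual signal for adding a poly(A) tail, were present in O13456 on the opposite strand but not on the strand printed. Over all 60305 probes, 10.3% held these letters as printed and 4.32% on the opposite strand. A match of letters is a description only, and the files give no genome positions.

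The dimmest SCD probe is shown because it gave the smallest changes of the gene.
SCD A_72_P558694: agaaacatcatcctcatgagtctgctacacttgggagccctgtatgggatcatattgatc

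Of the 33 probes, 30 were tested, and each of the 30 was well above background on all 36 arrays. They stand for 7 of the 8 genes. The level of a probe is its log2 normalized intensity, and no level was set against that of another probe. A probe was called when its adjusted p in limma, over all 46222 tested probes, was under 0.05. For each gene the brightest tested probe led, except for SREBF1, where O13456 led.

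HMGCS1, which makes the precursor of mevalonate for cholesterol, was the gene without a tested probe. Its probe A_72_P278614 lay between 4.94 and 5.77 and was well above background on 3 of 36 arrays. Its probe O9276 lay between 4.86 and 5.75 and was well above background on 1 of 36 arrays. No change of HMGCS1 is given. The remaining untested probe, FASN O15017, lay between 4.99 and 5.48 and was well above background on 9 of 36 arrays.

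The labelled tissue was checked with its markers. TG, the thyroglobulin gene, had a mean of 18.8, and 6 of the 10 follicular markers had a tested probe. Markers of fat cells were present too, 11 of 12 with a tested probe, each well above background on all 36 arrays, and PLIN4 was the marker without a tested probe. The summed marker level, a mean of the log2 values of the 11 markers, ran from 8.83 to 10.07 in the CR pigs. In the F1 pigs it ran from 9.14 to 10.13, and the LW pigs were lowest, at 8.58 to 9.42. At 24 °C it ran from 8.81 to 10.13 and at 30 °C from 8.58 to 9.98. In whole glands, fewer cells of a type and less RNA per cell cannot be told apart.

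Of the 5 slides, slides 1 to 4 carried 8 arrays each with every group present, and slide 5 carried 4 arrays. The slide mattered for part of the SREBF genes. After removal of the group means, slide took 95.6% of the remaining spread of SREBF1 A_72_P326973, 81.4% of that of SREBF1 A_72_P223967 and 85.6% of that of SREBF2 A_72_P255532, against a median of 18.6% over all tested probes. It took 8.92% for SREBF1 O13456, 11.7% for SREBF2 O8965 and 5.20% for SCD O15027. These slides were compared after the levels had been seen.

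SREBF1 encodes the SREBP-1 proteins. On slides 1, 2 and 5 probe A_72_P326973 lay between 10.25 and 10.51, and on slides 3 and 4 between 10.91 and 11.28. Probe A_72_P223967 lay between 8.74 and 9.80 on slides 1, 2 and 5 and between 9.96 and 10.68 on slides 3 and 4. For both probes the slides therefore formed separate bands, and every group present on a slide fell in the band of that slide. O13456 showed no such bands, with slide means between 8.48 and 8.65.

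Probe O13456 was higher in the 30 °C pigs. In CR its lowest, median and highest levels were 8.28, 8.41 and 8.74 at 24 °C and 8.44, 8.77 and 8.96 at 30 °C. In F1 they were 8.09, 8.39 and 8.61 at 24 °C and 8.70, 8.84 and 9.01 at 30 °C. In LW they were 8.23, 8.48 and 8.77 at 24 °C and 8.24, 8.76 and 9.07 at 30 °C. The F1 groups did not overlap, while those of CR and LW did. Since this contrast chose the probe, nothing is read from the gap. The share of all probes with such a gap is not given. Over the breeds the level was 0.32 ± 0.07 (SE) higher on the log2 scale, or 1.25-fold, and 16 of 18 pigs at 30 °C exceeded the 24 °C mean of their own breed. The difference was 0.26 in CR, 0.48 in F1 and 0.22 in LW. It lay between 0.24 and 0.45 within each of the 5 slides and between 0.29 and 0.35 over 48 settings of the analysis. On slide 5, however, 1 CR and 1 F1 pig at 30 °C stood against 2 LW pigs at 24 °C, so breed is mixed in there.

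The other SREBF1 probes did not show this rise over the breeds. A_72_P223967 differed by -0.01 ± 0.17 (SE) and A_72_P326973 by -0.03 ± 0.13 between the temperatures, with 8 of 18 pigs at 30 °C above the mean of their breed for each. The spread of A_72_P223967 was too wide to exclude a rise of the size seen for O13456. By breed, A_72_P326973 differed by 0.02 in CR, -0.34 in F1 and 0.22 in LW. With slide as a fixed block these became -0.08 ± 0.05 in CR, -0.10 ± 0.05 in F1 and 0.08 ± 0.05 in LW. A_72_P223967 differed by 0.02 in CR, -0.39 in F1 and 0.32 in LW. With slide as a fixed block its values were -0.09 ± 0.15 in CR, -0.06 ± 0.15 in F1 and 0.11 ± 0.15 in LW. For O13456 the values with slide as a block were 0.28 ± 0.12 in CR, 0.46 ± 0.12 in F1 and 0.21 ± 0.12 in LW. The array annotation ties A_72_P326973 and A_72_P223967 to the same pig SREBF1 transcript. It ties O13456 to a transcript that was not found in the pig reference set. The accessions of other probes were not found there either. Among them were those of both SREBF2 probes and of the leading probes SCD O15027 and ACACA A_72_P079111. The probes named SREBF1 thus gave different accounts, and which of them follows SREBF1 mRNA was not tested.

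The unnamed probe that shares 17 bases with O13456 on the opposite strand changed the other way, by -0.27 ± 0.06 (SE), with an adjusted p of 0.0186 in limma. After removal of the group means, its levels over the 36 pigs had r = -0.18 with those of O13456.

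**Figure D1:**
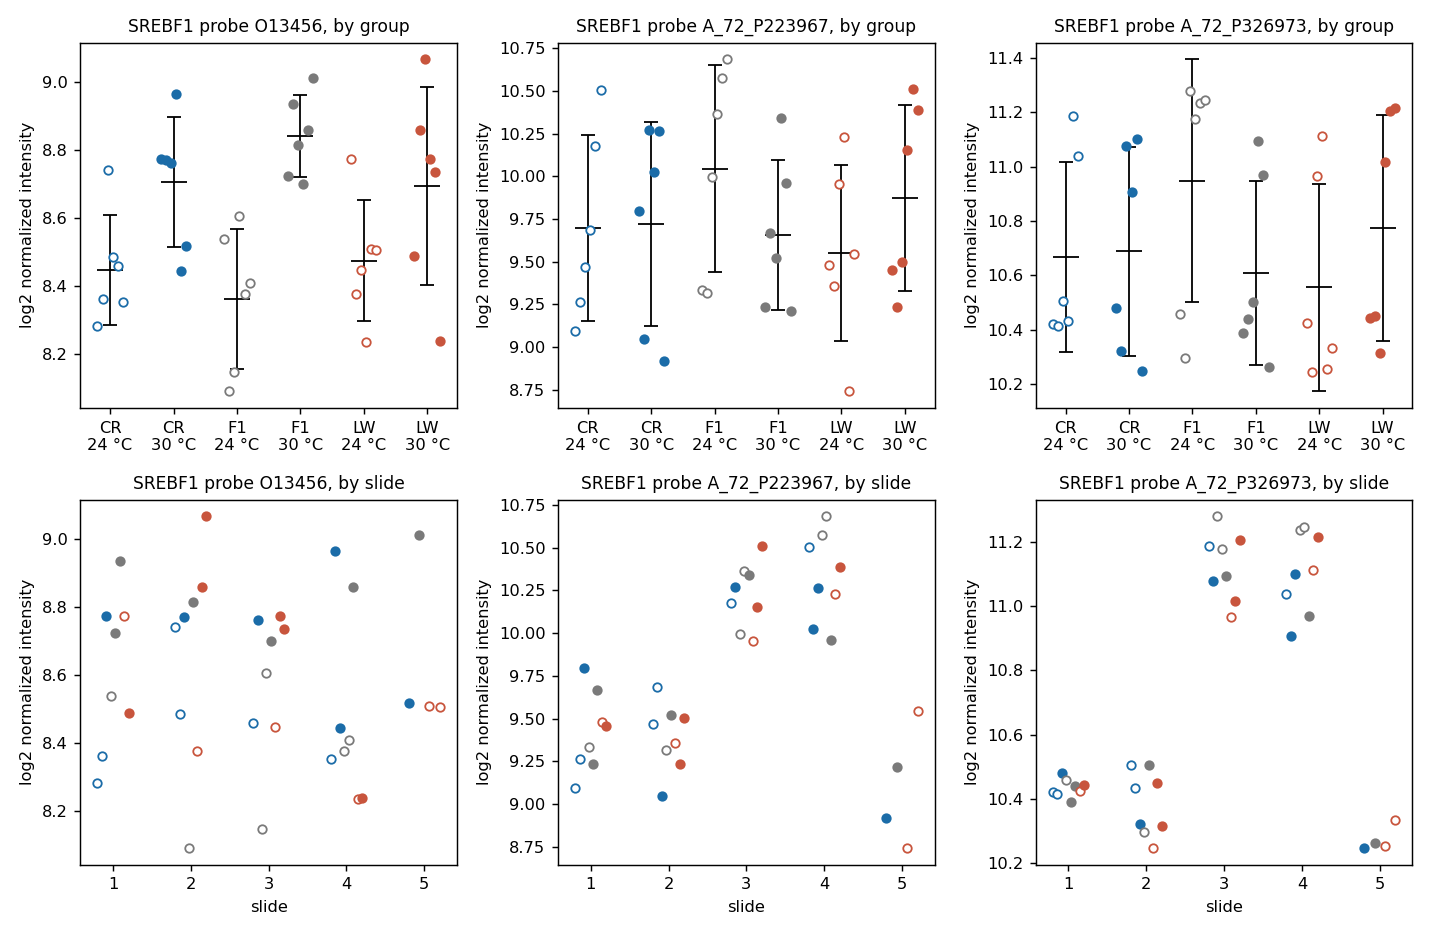
SREBF1 levels (y axis, log2 normalized intensity) of the 3 probes, by group in the upper panels and by slide in the lower ones, with 1 point per pig. Open points are 24 °C, filled points 30 °C, blue CR, grey F1 and red LW, and black bars in the upper panels are the mean and SD of 6 pigs. O13456 is higher at 30 °C, and A_72_P223967 and A_72_P326973 are higher on slides 3 and 4.

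No SREBF1 probe differed between breeds beyond the spread of the pigs. For LW against CR the difference was 0.01 for O13456, with a 95% interval of -0.16 to 0.17. It was 0.00 for A_72_P223967, with an interval of -0.43 to 0.44, and -0.01 for A_72_P326973, with an interval of -0.33 to 0.30. The last intervals are wide beside that of O13456, and the slides are part of their spread. F1 against CR was 0.02 and F1 against LW 0.02 for O13456.

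SREBF2 encodes SREBP-2, the factor of the cholesterol genes. Its probe O8965 had lowest, median and highest levels of 12.58, 13.01 and 13.57 in CR at 24 °C and 12.43, 12.72 and 13.63 at 30 °C. They were 12.49, 12.88 and 13.39 in F1 at 24 °C and 12.59, 12.88 and 13.33 at 30 °C. They were 12.77, 13.10 and 13.68 in LW at 24 °C and 12.66, 12.96 and 13.80 at 30 °C. All 6 groups overlapped. The temperatures differed by -0.11 ± 0.11 (SE) and LW and CR by 0.16, with a 95% interval of -0.12 to 0.44. A_72_P255532 differed by -0.04 ± 0.07 between the temperatures. O8965 shares 51 bases with a probe that has no gene name, and the pair had r = 0.98 over pigs after removal of the group means.

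INSIG1 encodes a protein that holds SREBP precursors back. Probe A_72_P186291 lay between 10.14 and 10.91 in CR, between 9.91 and 10.71 in F1 and between 10.32 and 10.78 in LW, with all 3 breeds overlapping. Its temperatures differed by 0.06 ± 0.07 (SE) and LW and CR by 0.11, with a 95% interval of -0.06 to 0.29. The dimmer probe A_72_P442208 differed by 0.19 ± 0.09 between the temperatures and by -0.13 between LW and CR, with an interval of -0.36 to 0.10. Both probes of the gene were unrelated over pigs, with r = -0.01 after removal of the group means.

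SQLE encodes squalene epoxidase, a rate-limiting enzyme of cholesterol synthesis. Its probe A_72_P444903 had group medians between 9.86, in LW at 30 °C, and 10.45, in LW at 24 °C. Single pigs reached from 9.41 to 11.62, both in LW at 30 °C, so the groups overlapped throughout. The temperatures differed by -0.12 ± 0.17 (SE) and LW and CR by -0.04, with a 95% interval of -0.47 to 0.38. The 4 SQLE probes differed by -0.12 to 0.05 between the temperatures and moved together over pigs, with r from 0.80 to 0.99.

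SCD encodes stearoyl-CoA desaturase, which makes monounsaturated fatty acids. Its probe O15027 had lowest, median and highest levels of 13.13, 13.65 and 14.73 in CR at 24 °C and 11.54, 12.91 and 13.26 at 30 °C. They were 12.11, 13.45 and 14.19 in F1 at 24 °C and 12.12, 12.86 and 14.18 at 30 °C. They were 11.81, 12.23 and 12.74 in LW at 24 °C and 10.67, 11.04 and 12.28 at 30 °C. The LW pigs were the low ones at both temperatures, and no LW pig at 24 °C reached the lowest CR pig at 24 °C. How many of all probes separate these pigs is not given.

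Between the temperatures O15027 was lower by 0.83 ± 0.22 (SE) on the log2 scale at 30 °C, or 1.78-fold. In CR the change was -1.21, in F1 -0.24 and in LW -1.05, and 15 of 18 pigs at 30 °C fell short of the 24 °C mean of their own breed. Within slides 1 to 4 it ran from -1.47 to -0.49. On slide 5, where 2 LW pigs at 24 °C stood against 1 CR and 1 F1 pig at 30 °C, it was 0.61. The 11 SCD probes gave changes from -0.87 to -0.43, the smallest from the dim probe A_72_P558694.

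LW pigs had less SCD signal than CR pigs. O15027 was lower in LW by 1.48 ± 0.27 (SE) on the log2 scale, which is 2.80-fold with a 95% interval of 1.91 to 4.09. The adjusted p in limma was 0.000249, between 7.79e-05 and 0.00116 over 47 settings, and 12 of 12 LW pigs lay below the mean of the CR pigs of their temperature. All 11 SCD probes were called lower, with changes from -1.48 to -0.75, and since they moved together with r from 0.94 to 1.00 over pigs they are 1 observation. A_72_P558694, at -0.75, gave -1.03 from the processed intensity, which is background-subtracted and here scaled to the 75th percentile in place of quantiles, and -0.56 after the normexp background correction.

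The SCD difference was present at both labelled temperatures. At 24 °C it was -1.56 ± 0.37 (SE), with an adjusted p in limma of 0.0141, and at 30 °C -1.41 ± 0.37, with 0.0269. The call at 30 °C was lost with slide as a fixed block (-1.30), with array position as a fixed block (-1.36), and without any of the CR pigs 1, 2 or 4 or the LW pigs 1, 4 or 5 at 30 °C, where the value lay between -1.36 and -1.28. Within slides LW minus CR was -1.98, -1.79, -1.99 and -1.01 on slides 1 to 4. It was 0.50 on slide 5, where 2 LW pigs at 24 °C stood against 1 CR pig at 30 °C.

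F1 pigs lay with CR for SCD. F1 exceeded LW by 1.43 ± 0.27 (SE) for O15027, with an adjusted p in limma of 0.00233 and 11 of 12 F1 pigs above the mean of the LW pigs of their temperature. F1 minus CR was -0.06, with a 95% interval of -0.61 to 0.49, an interval wide enough to hold a 1.52-fold lower level in F1.

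FASN encodes fatty acid synthase, which builds palmitate. Its probe A_72_P223177 had lowest, median and highest levels of 14.75, 15.00 and 15.27 in CR at 24 °C and 14.32, 14.61 and 14.97 at 30 °C. They were 14.31, 14.59 and 15.00 in F1 at 24 °C and 14.34, 14.59 and 15.21 at 30 °C. They were 13.76, 14.21 and 14.72 in LW at 24 °C and 13.98, 14.32 and 14.37 at 30 °C. At 24 °C the CR and LW pigs did not overlap, and at 30 °C they overlapped slightly. The share of all probes that separate these pigs at 24 °C is not given.

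LW was lower than CR by 0.57 ± 0.11 (SE) for A_72_P223177, or 1.49-fold with a 95% interval of 1.27 to 1.73. The adjusted p in limma was 0.000447 and 12 of 12 LW pigs lay below the mean of the CR pigs of their temperature. The other 3 tested FASN probes gave -0.26 to -0.21 and were not called, with adjusted p of at least 0.105, so the size of the FASN difference rested on the probe. On slides 1 to 4 the difference for A_72_P223177 was -0.73, -0.68, -0.82 and -0.47, and on slide 5, with its 3 pigs, 0.06. It was -0.74 at 24 °C, with an adjusted p of 0.00358, and -0.40 at 30 °C, with 0.138.

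F1 exceeded LW by 0.44 ± 0.11 (SE) for A_72_P223177, with an adjusted p in limma of 0.0249, and 12 of 12 F1 pigs lay above the mean of the LW pigs of their temperature. The other tested FASN probes gave 0.26 to 0.37 and were not called, with adjusted p in limma of at least 0.123. The call of A_72_P223177 was lost without LW pig 3 at 24 °C, at 0.39. It was also lost with 3 pigs left out together, at 0.36 with an adjusted p in limma of 0.0878. These were CR pig 3 at 30 °C, F1 pig 4 at 24 °C and F1 pig 6 at 30 °C. They were chosen after the data had been seen. The temperatures differed by -0.08 ± 0.09 over the breeds, with -0.33 in CR, 0.07 in F1 and 0.01 in LW. The 2 identical FASN probes, A_72_P338038 and A_72_P647699, had r = 0.99 and count as 1 sequence.

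**Figure D2:**
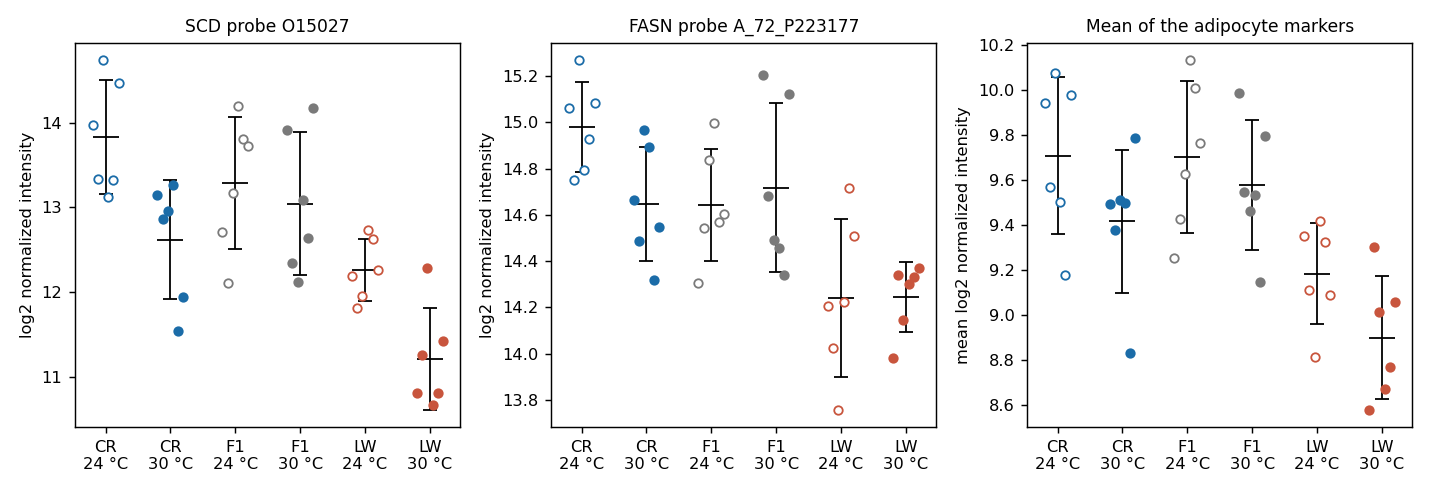
Levels (y axis, log2 normalized intensity) of SCD probe O15027, FASN probe A_72_P223177 and the mean of the 11 fat cell markers, with 1 point per pig in the 6 groups. Open points are 24 °C, filled points 30 °C, and bars are the mean and SD of 6 pigs. The lowest pig is an LW pig in all 3 panels, and SCD runs from 10.67 to 14.73.

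ACACA encodes acetyl-CoA carboxylase 1, which supplies FASN with malonyl-CoA. Its probe A_72_P079111 lay between 10.98 and 11.56 over the 36 pigs, with the breeds overlapping, the narrowest spread of the leading probes. The temperatures differed by 0.05 ± 0.05 (SE) and the 4 ACACA probes by 0.05 to 0.13. LW and CR differed by 0.00, with a 95% interval of -0.12 to 0.13, so ACACA did not share a difference of the size seen for SCD or FASN.

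Over the pathway members the counts were as follows. Between the temperatures, 1.18% of all tested probes were called (545 probes, 140 higher and 405 lower). Since this contrast chose the genes, no count of their calls is given for it. For LW against CR, 12 of 30 probes and 2 of 7 leading probes were called, all lower and all of SCD and FASN, against 12.9% of all tested probes. For F1 against LW the same 2 leading probes were called higher, against 1.99%. The same SCD and FASN probes make up both counts, and the comparisons share the LW pigs.

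For F1 against CR, 0 of 30 probes were called, against 3.38% of all tested probes, with 1 SQLE probe, A_72_P705210, at an unadjusted p of 0.0493. For LW against CR at 24 °C 12 of 30 probes were called, 11 of SCD and 1 of FASN, against 3.46%. At 30 °C 10 of 30 were called, all of SCD, against 3.67%. Counted by leading probes, 2 of 7 were called at 24 °C and 1 of 7 at 30 °C. No probe of the array was called for a difference between breeds in their temperature change (0%, with 2157 probes at an unadjusted p under 0.05 by limma's F test). Of the members, SCD A_72_P558694 had the smallest unadjusted p, 0.0939, with an adjusted p of 0.9999, and 0 of the 30 were under 0.05. The different values of SCD in CR, F1 and LW were therefore not shown to differ.

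**Figure D3:**
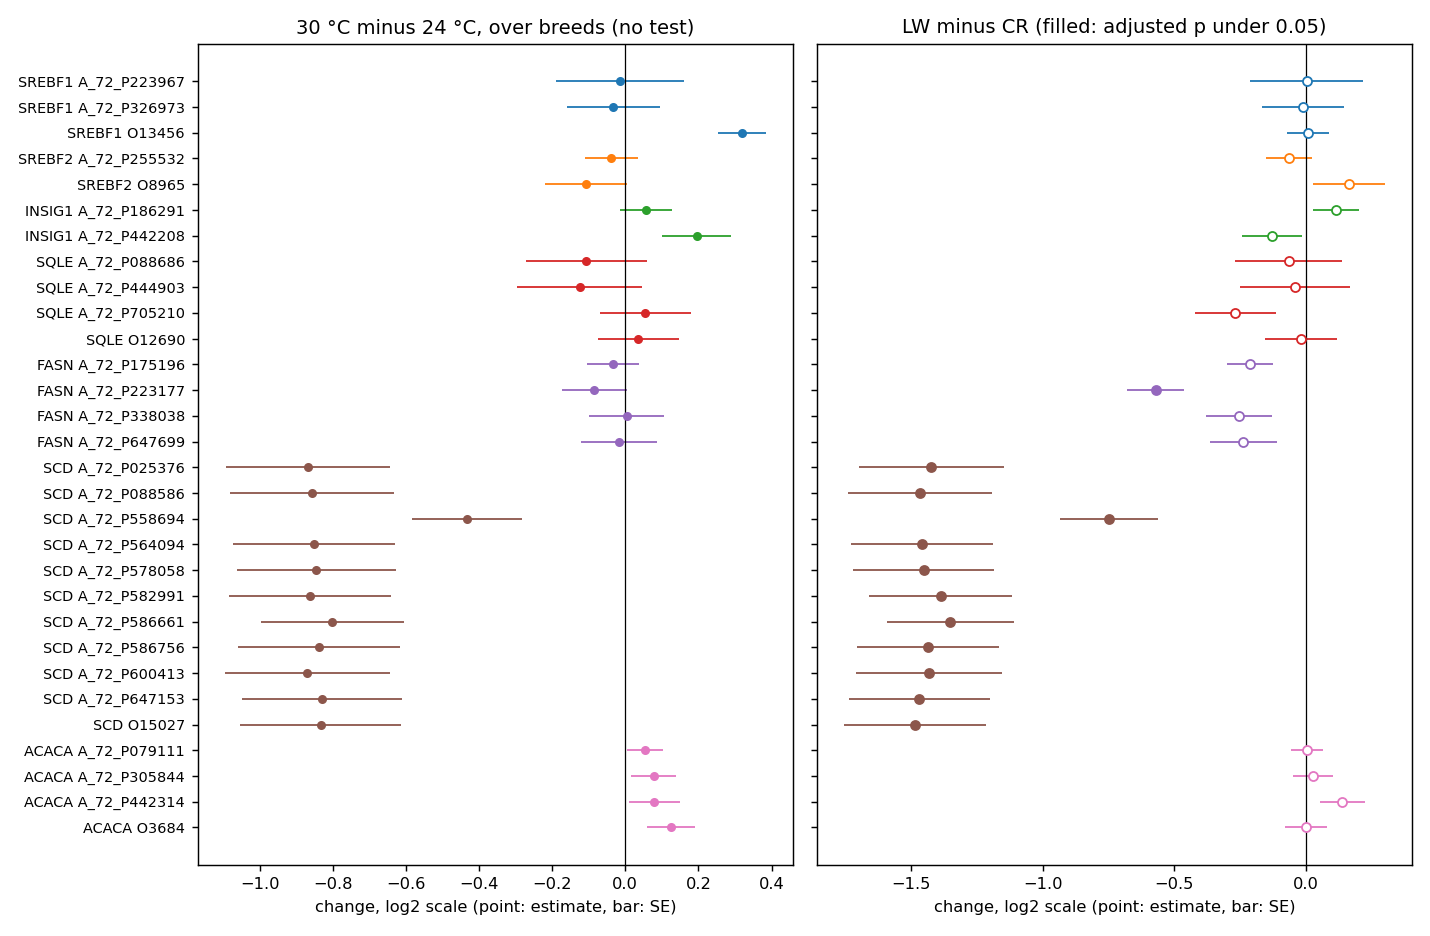
Changes on the log2 scale (x axis) of the 30 tested probes, with the SE as bars, 30 °C minus 24 °C on the left and LW minus CR on the right. Each colour is 1 gene, and filled points on the right passed an adjusted p of 0.05. The 11 SCD probes lie left of 0 in both panels, and SREBF1 O13456 stands alone to the right in the left panel at 0.32.

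Part of the fat cell markers differed between the breeds in the same direction as SCD and FASN. Between LW and CR, 5 of 11 markers were called, all lower, where 12.9% of all tested probes were called. The markers' median change was -0.35, and that of all probes 0.00. CIDEA, a lipid droplet protein gene, fell by 1.36, the hormone gene ADIPOQ by 1.21, the droplet coat gene PLIN1 by 1.20 and CIDEC by 0.79. Between F1 and LW, 5 of 11 were called higher, where 1.99% of all probes were called. Between the temperatures 0 of 11 were called, where 1.18% of all tested probes were called. At an unadjusted p under 0.05 by limma there were 5 of 11, beside 4503 of all 46222 probes. The median change was -0.30, and the smallest p belonged to the lipase genes LIPE at -0.35 and LPL at -0.53. Other cell type lists had medians below 0 with temperature too, -0.28 for 6 fibroblast markers, of which 5 had values below 0, and -0.17 for 5 macrophage markers, of which all 5 did, with 0 called and 2 and 1 at an unadjusted p under 0.05.

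After removal of the group means, SCD had r = 0.71 with the mean of the markers over 36 pigs and FASN r = 0.65. With slide removed as well, these were 0.72 and 0.68. SREBF2 O8965 had r = -0.53 and SREBF1 O13456 r = 0.20. The values share their arrays and are given as a description. The part of fat cells in the SCD and FASN differences was not tested.

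**Figure D4:**
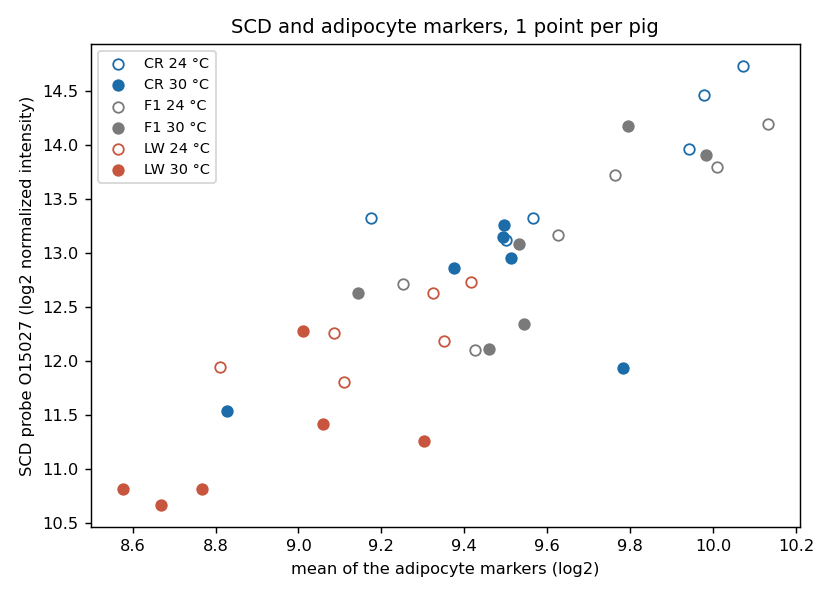
SCD probe O15027 (y axis, log2 normalized intensity) against the mean of the 11 fat cell markers (x axis, log2), 1 point per pig. Open points are 24 °C, filled points 30 °C, blue CR, grey F1 and red LW. Pigs with more marker signal had more SCD, with r = 0.71 after removal of the group means, and the LW pigs lie at the low end of both axes.

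Other genes of the pathway were counted from lists, 1 leading probe per gene. The lists, those of cell type markers included, were chosen with earlier results of these data known. Their counts are therefore no independent check of SCD and FASN. None of the lists had a called gene between the temperatures by limma, where at an unadjusted p under 0.05 there were 1 of the processing genes, 0 of the cholesterol synthesis genes, 5 of the uptake genes and 5 of the fatty acid genes, beside 4503 of all 46222 probes. Among 10 tested genes of SREBP processing and sterol sensing, the smallest p belonged to NR1H3, the sterol receptor LXR alpha, at 0.13, and to FBXW7, a ubiquitin ligase subunit that marks SREBPs for decay, at 0.08. Among 12 cholesterol synthesis genes they belonged to FDFT1, squalene synthase, at 0.15, and NSDHL at -0.17. Among 11 genes of cholesterol uptake, transport and efflux they belonged to MYLIP, which sends the LDL receptor to decay, at 0.16, and the exporter ABCG1 at 0.26. Among 18 other genes of fatty acid and triglyceride synthesis they belonged to the elongase gene ELOVL6 at -0.45 and to the malic enzyme gene ME1 at -0.55. The list medians lay between -0.04 and 0.10, against 0.01 for all probes.

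Between LW and CR, 5 of the 18 fatty acid and triglyceride genes were called, all lower, where 12.9% of all tested probes were called. They include ME1 at -1.25, ELOVL6 at -1.19, DGAT2, which makes triglyceride, at -1.004, and LPIN1 at -0.64. The sizes rested on the probe, since another ELOVL6 probe gave -0.59 and another DGAT2 probe -0.50. The list's median was -0.12. Of the 12 cholesterol synthesis genes 2 were called, TM7SF2, a sterol reductase gene, higher by 0.24 and FDFT1 lower by 0.31, with a list median of 0.13, a share near that of all probes. LIPA, the lysosomal acid lipase gene, was the called gene of 11 in the uptake list, at -0.58. INSIG2, the paralog of INSIG1, was the called gene of 10 in the processing list and was higher in LW by 0.61, with an adjusted p in limma of 0.0009. At 1 of 11 and 1 of 10, neither of these lists exceeded the share over all tested probes.

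Between F1 and LW, 4 of the 18 fatty acid genes were called higher, against 1.99% of all probes, DGAT2 by 1.26, ELOVL6 by 1.11, ME1 by 1.11 and LPIN1 by 0.68. LIPA was higher in F1 by 0.32, and 0 of 12 cholesterol synthesis genes were called. Of these, 2 had an unadjusted p under 0.05 by limma, beside 6187 of all 46222 probes. Between F1 and CR, INSIG2 was called at 0.61, as 1 gene of 10 in its list, against 3.38% of all tested probes. INSIG2 was thus low in CR against both other breeds. Of the other cell type lists, 3 of 5 endothelial markers were called higher in LW than in CR, against 12.9% of all tested probes. They were KDR at 0.73, PECAM1 at 0.35 and CDH5 at 0.19. Of 7 muscle markers, ACTA1 was called higher, at 0.22, a share near that of all probes. The other 6 had values below 0 and the list's median was -0.12. No fibroblast, macrophage, parathyroid or follicular marker was called, and 0 of them had an unadjusted p under 0.05 by limma. KDR was also the called endothelial marker of 5 between F1 and CR, higher in F1 by 0.51, against 3.38% of all tested probes.

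**Figure D5:**
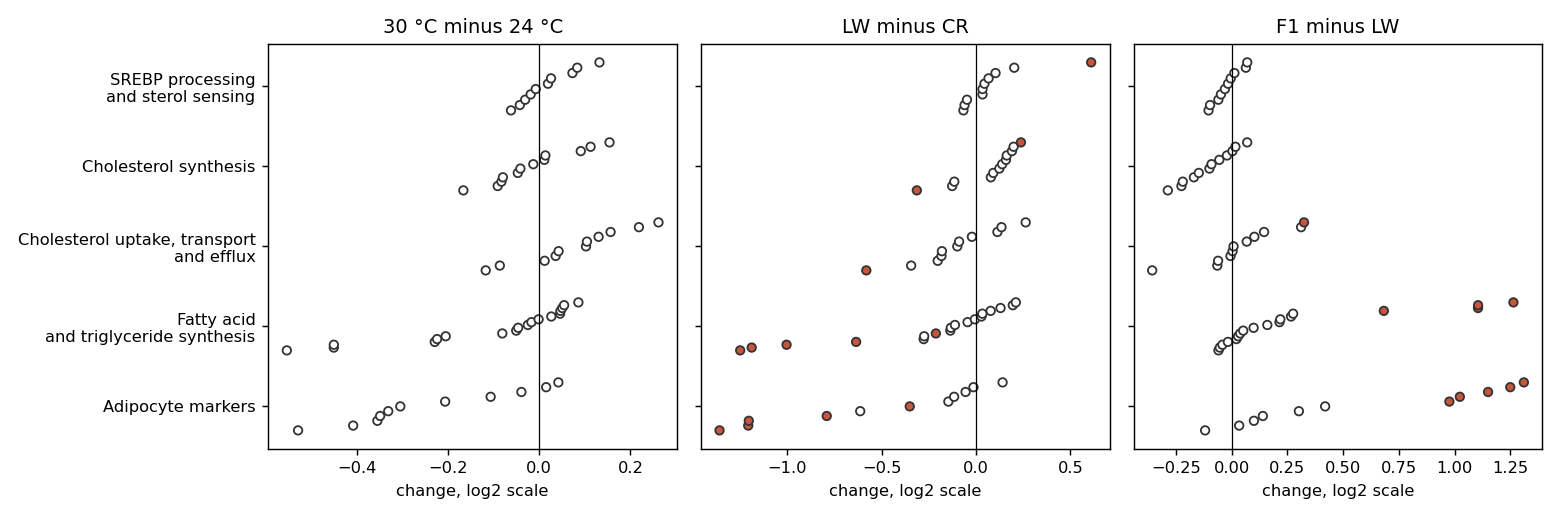
Changes on the log2 scale (x axes) of the tested genes of 4 pathway lists and of the fat cell markers (rows), 1 point per gene, for 30 °C minus 24 °C, LW minus CR and F1 minus LW. Filled points passed an adjusted p of 0.05 in limma. No point is filled for temperature, and the filled points of the fatty acid and fat cell rows lie below 0 for LW minus CR and above 0 for F1 minus LW.

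Members were also compared over pigs. The 7 leading probes give 21 pairs, and for each pair Pearson's r and Spearman's rho were taken after removal of the group means, with permutation of pigs within groups and Benjamini-Hochberg adjustment over the 21 pairs. By r, 5 pairs passed, all positive, and by rho 3 passed.

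SREBF2 and SQLE varied together most. Their r was 0.74 over 36 pigs, with an adjusted permutation p of 0.00084, and their rho was 0.73. Without the 2 pigs farthest from the SREBF2 median r was 0.69, and with slide removed 0.75. Over the 8 pairs of their probes r ran from 0.15 to 0.74, and with the other SREBF2 probe, A_72_P255532, r was 0.22, so the relation rested on the probe O8965. INSIG1 A_72_P442208, which is not the leading probe, had r = 0.72 with SQLE, as a description.

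FASN and SCD had r = 0.64, with an adjusted permutation p of 0.0022, a rho of 0.61 and r = 0.63 without 2 pigs. Over 44 probe pairs r ran from 0.45 to 0.79. SCD and ACACA had r = 0.49, with an adjusted permutation p of 0.0263, a rho of 0.50 and r = 0.54 without 2 pigs, and r ran from 0.10 to 0.53 over 44 probe pairs.

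INSIG1 and SCD had r = 0.51, with an adjusted permutation p of 0.0272, and a rho of 0.47 whose adjusted permutation p was 0.0553. Without 2 pigs r was 0.37, and with slide removed 0.52. Within the breeds it was 0.62 in CR, 0.63 in F1 and -0.11 in LW. Over the 22 probe pairs r ran from 0.01 to 0.55 with a median of 0.25, and the other INSIG1 probe had r = 0.03 with SCD O15027, so the relation was that of 1 INSIG1 probe. SQLE and ACACA had r = 0.47, with an adjusted permutation p of 0.0305, and a rho of 0.44 whose adjusted permutation p was 0.0666. Without 2 pigs r was 0.40, and with slide removed 0.38. Over the 16 probe pairs r ran from 0.01 to 0.47 with a median of 0.08, so the value printed was the highest of them. The last pairs thus passed by r but not by rho.

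SREBF1 O13456 passed with no other member. Its highest r was 0.40 with SCD, with an adjusted permutation p of 0.0661. The other SREBF1 probes were tied to slides. A_72_P326973 and A_72_P223967 had r = 0.92 with each other and 0.48 with slide removed. A_72_P326973 had r = 0.88 with SREBF2 A_72_P255532 and 0.19 with slide removed. With O13456 it had r = -0.22, and -0.09 with slide removed.

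The genes most like O13456 over the 36 pigs, by r after removal of the group means, were KRT8, a keratin of simple epithelia, at 0.75, ANGPTL2 at 0.74, TAF11 at 0.72, FMNL3 at 0.70 and LGALS1 at 0.69. Those most like SCD were ME1 at 0.85, ELOVL6 at 0.85, the lipoprotein lipase gene LPL at 0.85, and AKR1CL1 and AKR1C1 at 0.84 each. Those most like FASN were TUSC5 at 0.72, CIDEC at 0.71, ELOVL6 and DGAT2 at 0.67 each and PLIN1 at 0.66. With slide removed the 15 values lay between 0.67 and 0.91. Each gene stands here with its most alike probe, which for ME1, ELOVL6, LPL, DGAT2 and PLIN1 was not the leading probe of the lists above.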

How the data were processed

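Arrays of 36 pig thyroid glands were used. Per the file headers the scanner files (Agilent Feature Extraction 10.10.1.1, per the labels) hold median and mean pixel intensity, local background and a processed intensity of each spot, unscaled between arrays. The authors quantile-normalized intensity and deposited log2 values, which served as an alternative. Here control spots were left out, 106 non-uniform spots set to missing, median intensity quantile-normalized, log2 taken and spots averaged per probe. Of 60305 probes, 46222 were well above background on at least 5 of 6 arrays of a group and were tested (limma 3.58.1, R 4.3.3; breed plus temperature, or 6 group means; Benjamini-Hochberg). Arrays have no read depth, and on each array 72.8% to 80.3% of probes exceeded background clearly.

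The genes and lists were chosen with earlier results of these data known. All 8 genes are named. From each list the largest called changes were named, up to 4 per direction, or the 2 smallest p where none was called, and for likeness the 5 highest r. For F1 minus CR and for LW minus CR at each temperature only some of these genes are given. The methods' random terms for pen, slaughter day, sire and dam could not be fitted. Alternatives were other scaling, background correction, filters, slide, position, the breed term, each pig left out, and, chosen after seeing the data, 3 pigs left out together. Fits were tested on simulated data. Some probe sequences are not reported here.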

Additional observations from a re-analysis of the deposited data

Results flagged for a closer look

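Within groups of 6 pigs, 3 of 60 sets of values had a pig far from the other 5, where the gap to the nearest pig, as a share of the group's range, was over Dixon's 95% critical value, and chance alone gives about 3 of 60. For SREBF2 probe O8965 the pig CR 5 at 30 °C lay at 13.63, above the others at 12.43 to 12.83, a gap of 0.665 of the range. For the same probe the pig LW 4 at 30 °C lay at 13.80, above the others at 12.66 to 12.98, a gap of 0.720. For SQLE probe A_72_P444903 the same pig LW 4 at 30 °C lay at 11.62, above the others at 9.41 to 10.22, a gap of 0.633.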

How the results depend on the processing

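Between the temperatures no count of called members is given, since this contrast chose the genes. Over 48 settings the change lay between 0.29 and 0.35 for SREBF1 O13456. For SCD O15027 it lay between -0.93 and -0.75. For F1 minus LW the count of 2 members with a called leading probe became 1 with the 3 pigs out. It lay between 1 and 2 with each pig out. For LW minus CR at 30 °C the count of 1 became 0 with slide or position as a fixed block, and lay between 0 and 1 with each pig out. The number of probes called for LW minus CR at 24 °C lay between 883 and 1665 with each pig out, and was 883 without LW replicate 3. Over the other settings 441 to 633 probes were called between the temperatures, 5411 to 7218 for LW minus CR and 769 to 1118 for F1 minus LW. Interaction gave 0 throughout. No result reversed its sign among called values. The causes were not tested. No paired analysis was possible because the labels carry no replicate numbers and replicates were numbered in accession order.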
